A study of Mus musculus with 6 samples.

Results

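The genes described here are the glucocorticoid receptor Nr3c1, the enzyme Hsd11b1 that regenerates its hormone inside fat cells, and 6 genes widely used as readouts of receptor activity: Fkbp5, Tsc22d3, Sgk1, Zbtb16, Mt1 and Mt2. They were chosen by symbol, and all 8 were found among the 25894 Ensembl identifiers of the deposited RNA sequencing table and passed the filter on low values. The tissue was inguinal white adipose tissue, a subcutaneous fat depot. It was taken after a 10 h fast from female mice of the C57BL/6N strain. In the SF 8w-SR 2w group (called fragmented, recovered here), 3 mice had 8 weeks of sleep fragmentation followed by 2 weeks of sleep recovery. Their age is stated as 15 weeks, without saying at which step. The 3 mice of the Control group carried the treatment label control, with no further detail, and no genetic alteration is stated for either group. Each library came from 1 mouse.

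Corticosterone, the main glucocorticoid of mice, enters cells, binds the receptor held in the cytoplasm by Hsp90 and its co-chaperones, and sends it to the nucleus, where it binds DNA and switches genes on or off. In fat, glucocorticoids act on fat cell formation, lipid storage and release, and inflammation. The enzyme made from Hsd11b1 turns the inert steroid back into active hormone, so that a fat cell can raise its own exposure above that of the blood. Some targets feed back on the pathway: the protein made from Fkbp5 lowers the affinity of the receptor for its hormone.

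The canonical receptor-binding element is a palindrome of AGAACA and TGTTCT with 3 free bases between them, and metal response elements, bound by the zinc sensor MTF-1, have the core TGCACNC or TGCGCNC. Promoter windows from RefSeq (build GRCm38.p6), covering the 250 bases before each listed start, matched 6 of the 8 members with 13 windows, 6 of them of Sgk1. A search on both strands found the full palindrome in 3 of all 32851 windows of this length, or 0.00913%, and 1 of the 3 is a window of Sgk1. The window is shown because it is the only one of the 13 with the full element, whose letters are in capitals. The window lies on the plus strand at chr10:21993640-21993889, and the element begins 189 bases before the start.
Sgk1: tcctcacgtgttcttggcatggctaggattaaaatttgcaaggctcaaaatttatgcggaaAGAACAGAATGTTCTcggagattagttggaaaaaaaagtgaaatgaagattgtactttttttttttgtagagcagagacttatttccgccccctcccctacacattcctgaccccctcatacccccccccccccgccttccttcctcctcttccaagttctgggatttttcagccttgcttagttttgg

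Mt1 and Mt2 are neighbours on chromosome 8, and their windows are shown because the ratio of their reads is described below. Capitals mark matches to either metal response core on either strand. Mt1 had 1 match at chr8:94178839-94179088 and Mt2 had 3 at chr8:94172368-94172617, both on the plus strand. At least 1 match was present in 21.4% of all windows and at least 3 in 1.26%. Only the windows before the listed starts were searched, and matches past those starts were not counted. The counts therefore do not compare the whole promoters of Mt1 and Mt2. A match is a run of letters, and binding was not measured.
Mt1: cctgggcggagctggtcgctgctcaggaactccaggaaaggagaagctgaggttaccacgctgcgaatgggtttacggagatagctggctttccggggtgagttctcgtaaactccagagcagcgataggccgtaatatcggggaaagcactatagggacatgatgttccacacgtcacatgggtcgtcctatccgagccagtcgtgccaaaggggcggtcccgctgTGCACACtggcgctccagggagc
Mt2: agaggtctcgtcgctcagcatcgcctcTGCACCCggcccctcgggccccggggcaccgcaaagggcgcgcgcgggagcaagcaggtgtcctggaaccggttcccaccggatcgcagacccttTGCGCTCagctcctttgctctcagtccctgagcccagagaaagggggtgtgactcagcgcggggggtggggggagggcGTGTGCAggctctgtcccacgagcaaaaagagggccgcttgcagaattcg

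The libraries held between 15610201 and 19703569 reads recovered from the deposited values, and they were unequal in cell content. The summed level of 14 adipocyte markers lay between 480434 and 835387 normalised read counts in the fragmented, recovered mice and between 432125 and 683788 in controls. The summed level of 14 B and plasma cell markers ranged from 1869 to 38195 and from 2150 to 93897 in the same groups. It was high in fragmented, recovered 2, control 2 and control 3. Muscle markers were highest in fragmented, recovered 1 and control 2, with sums of 85283 and 10510 normalised read counts, against 209 to 2075 in the other libraries. Mammary epithelium markers were low in controls 2 and 3, where the median deviation from the mean over 14 markers was -1.16 and -1.28 on the log2 scale, against 0.33 to 0.85 in the other libraries. Keratinocyte markers were also lowest there (-0.64 and -1.02, against -0.30 to 1.03). The summed level of 15 early response genes, of which Btg2 and Jun were the most abundant, lay between 8291 and 9546 normalised read counts in the fragmented, recovered mice and between 3766 and 6181 in controls, without overlap. No marker of any list was at 0 in all libraries, and 6 of the 14 B and plasma cell markers were at 0 in at least 1. In controls 2 and 3 a gene's deviation from its mean also fell with GC content (Spearman rho across genes -0.273 in both), whereas it rose in the other libraries (0.132 to 0.368). In whole tissue, fewer cells of a type and less RNA per cell cannot be told apart.

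No member differed between the groups past the threshold. Levels are normalised read counts, the deposited values, and differences are on the log2(value + 1) scale from limma, fragmented, recovered minus control. With Benjamini-Hochberg adjustment over 22290 genes, limma called 0 genes, or 0% of those tested, and 0 of the 8 members. At an unadjusted p under 0.05 limma had 1201 genes and 0 members. At that threshold edgeR had 754 of 16141 genes and DESeq2 1186 of 25776, with 0 calls each, and both had 1 member, Nr3c1. The median difference was 0.16 over the members and 0.02 over all genes tested, with 5 members above 0 and 3 below. All members had groups that overlapped, whereas the group of fragmented, recovered mice lay wholly above the controls in 5.02% of genes and wholly below in 3.58%. Exact two-sided permutation p-values of single members ranged from 0.3 to 0.9, where 3 against 3 allows no less than 0.10.

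**Figure D1:**
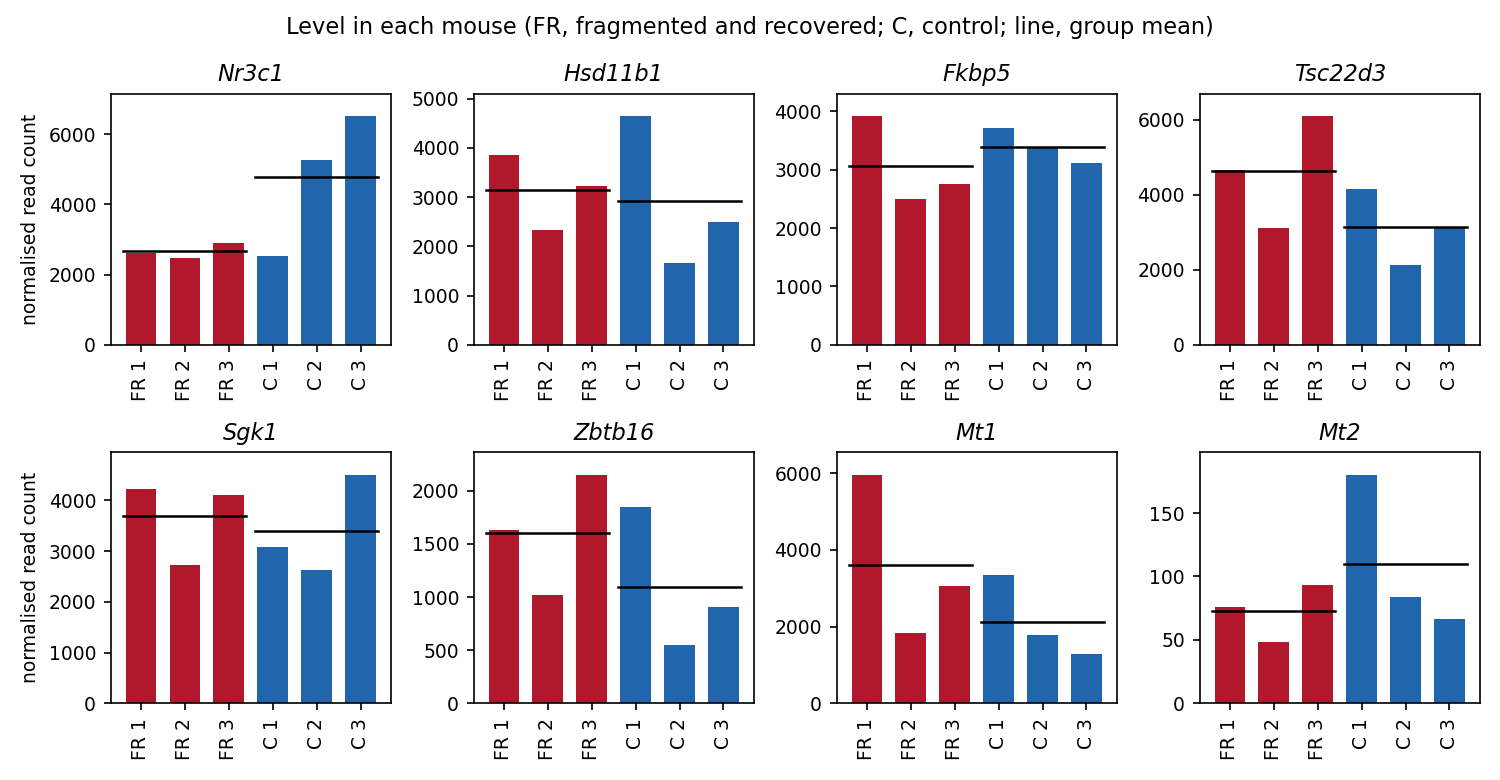
Normalised read counts (bars, vertical axes from 0) of the 8 genes in each of the 6 mice, with a line at the mean of each group. Nr3c1 stands high in controls 2 and 3 only, Mt1 is highest in fragmented, recovered 1, and no gene separates the groups.

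Nr3c1, the receptor itself, had the difference with the smallest p-value among the members. In fragmented, recovered 1 to 3 it stood at 2617, 2485 and 2913 normalised read counts, against 2545, 5269 and 6509 for controls 1 to 3. The fragmented, recovered mice lay close together, and control 1 fell among them while controls 2 and 3 were far higher. The means were 2671 ± 219.1 (SD, n = 3) and 4774 ± 2028 (SD, n = 3), or -0.73 on the log2 scale (SE 0.34, 95% interval -1.50 to 0.03, limma adjusted p = 0.697).

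Single controls moved that value in both directions. Without control 3 limma gave Nr3c1 a difference of -0.46 (adjusted p = 0.972), and without control 1 it gave -1.14 (adjusted p = 0.0382), while limma-voom with quality weights on all 6 mice gave -1.07 (adjusted p = 0.0455). Without control 1 and with quality weights, Nr3c1 was the only member called, against 3.79% and 6.34% of all genes. The dependence of deviations on GC content and on transcript length was then fitted per library and removed. On those values limma gave -0.23 with all 6 mice (adjusted p = 0.855), where it had made no call before. Without control 1 it gave -0.39 (limma adjusted p = 0.298), no longer a call. The fit with quality weights was not repeated on those values. Nr3c1 has a long transcript low in GC: its longest annotated transcript exceeds those of 91.4% of genes tested, and its GC content of 42.2% exceeds that of 14.8%. Controls 2 and 3, high for Nr3c1, were also the libraries whose deviations fell with GC content (Spearman rho -0.273 in both). The part of GC content and length in the Nr3c1 difference was not tested. Within the libraries high in B cell markers, fragmented, recovered 2 lay 1.24 below the mean of controls 2 and 3 on the log2 scale. Among the other libraries, fragmented, recovered 1 and 3 lay on average 0.12 above control 1.

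Hsd11b1, which encodes the hormone-regenerating enzyme, showed no separation. It had 3850.5, 2330.3 and 3225 normalised read counts in fragmented, recovered 1 to 3 and 4639, 1653 and 2491 in controls 1 to 3. Controls held both the highest and the lowest value. The log2 difference was 0.20 (SE 0.37, 95% interval -0.64 to 1.04, limma adjusted p = 0.871) and turned to -0.15 without control 2 and to -0.09 when the score of B cell markers entered the fit.

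Hsd11b2, which encodes the opposing enzyme that inactivates the hormone, was near the limit of detection. It had 14, 17 and 15 recovered reads in fragmented, recovered 1 to 3 and 10, 1 and 7 in controls 1 to 3. The fragmented, recovered mice lay above all controls in normalised values, as they did for 5.02% of all genes. The difference of 1.28 on the log2 scale had an SE of 0.84 and a limma adjusted p of 0.700. H6pd, which supplies the reduced cofactor for the regenerating enzyme, had a mean of 3664 ± 469.6 (SD, n = 3) against 4374 ± 1207 in controls, a difference of -0.23 (SE 0.26, limma adjusted p = 0.786).

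The targets fell into those with similar values in all mice and those that varied with the library. Fkbp5, the co-chaperone of the feedback loop and a common marker of receptor activity, was the steadiest member. It stood at 3916, 2491 and 2763 normalised read counts in fragmented, recovered 1 to 3 and 3710.1, 3365 and 3118 in controls 1 to 3. The controls lay inside the range of the other group. The log2 difference was -0.18 (SE 0.25, limma adjusted p = 0.826), with a 95% interval from -0.73 to 0.38.

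Sgk1, a kinase that acts on ion transport and cell survival, also varied little. It had 4224, 2731.5 and 4108 normalised read counts in fragmented, recovered 1 to 3 and 3072, 2619 and 4500.5 in controls 1 to 3. The highest and the lowest values were both in controls. The log2 difference was 0.13 (SE 0.29, 95% interval -0.52 to 0.77, limma adjusted p = 0.895) and was -0.04 without control 2. The ratio of the highest to the lowest mouse was 1.57 for Fkbp5 and 1.72 for Sgk1, below the median of 2.11 over 12850 genes with a mean of at least 50 and no value at 0.

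Tsc22d3 encodes GILZ, a leucine zipper protein that carries part of the anti-inflammatory action of glucocorticoids. It had 4676, 3126 and 6097 normalised read counts in fragmented, recovered 1 to 3 and 4166, 2121 and 3140.3 in controls 1 to 3. Fragmented, recovered 1 and 3 lay above every control, and fragmented, recovered 2 lay just under control 3. The means of 4633 ± 1486 (SD, n = 3) and 3142 ± 1023 gave a log2 difference of 0.56 (SE 0.33, 95% interval -0.18 to 1.3, limma adjusted p = 0.697). It was 0.30 without control 2 and 0.82 without fragmented, recovered 2.

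Zbtb16 encodes PLZF, a zinc finger transcription factor strongly induced by glucocorticoids in several cell types. It had 1631, 1017 and 2151 normalised read counts in fragmented, recovered 1 to 3 and 1847, 548.2 and 903.4 in controls 1 to 3. Control 1 lay between the highest fragmented, recovered mice, and controls 2 and 3 lay below all 3. The log2 difference was 0.65 (SE 0.44, 95% interval -0.33 to 1.64, limma adjusted p = 0.700), and it ranged from 0.24 without control 2 to 1.12 without control 1.

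Mt1, which encodes a small cysteine-rich protein that binds zinc and is induced by both metals and glucocorticoids, had the widest range of the members, 4.64-fold. It had 5954, 1834 and 3057 normalised read counts in fragmented, recovered 1 to 3 and 3338, 1771 and 1284 in controls 1 to 3. Fragmented, recovered 1 was far above the rest, and control 1 was next. The log2 difference was 0.71 (SE 0.46, 95% interval -0.32 to 1.74, limma adjusted p = 0.699). It was 0.27 without fragmented, recovered 1 and 0.41 without control 3, but 1.12 without fragmented, recovered 2 and 1.09 without control 1. With GC and length trends removed it was 0.38. Without the pair of libraries highest in muscle markers, fragmented, recovered 1 and control 2, it was 0.19.

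Mt2, the paralog of Mt1, differed in the opposite direction and was far lower. It had 75.7, 48.5 and 93.0 normalised read counts in fragmented, recovered 1 to 3 and 180.1, 83.6 and 66.8 in controls 1 to 3. Control 1 alone was high, and the other 5 mice overlapped. The log2 difference was -0.51 (SE 0.50, 95% interval -1.63 to 0.60, limma adjusted p = 0.758), -0.10 without control 1, -0.26 without fragmented, recovered 2, -0.80 without control 3 and -0.93 with GC and length trends removed. In that last setting the groups did not overlap, by a margin of 0.16 in fragmented, recovered 3 against 0.17 in control 3 as deviations from the gene's mean. The share of all genes that separate in that setting was not computed.

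**Figure D2:**
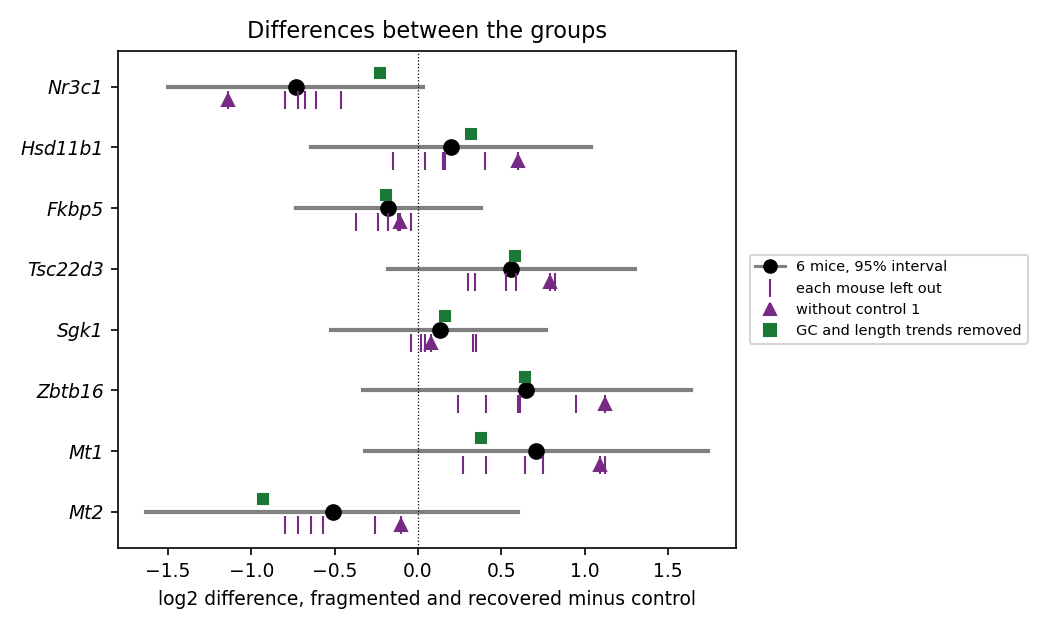
Log2 difference of each gene between the groups (horizontal axis) with all 6 mice (point) and its 95% interval (bar), with each mouse left out (ticks, a triangle for control 1) and with GC and length trends removed (square). Every interval includes 0, and Nr3c1 moves from -1.14 without control 1 to -0.23 with trends removed.

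The ratio of Mt1 to Mt2 reads separated the groups, a comparison chosen after the values were seen. Mt1 had 78.7, 37.8 and 32.9 recovered reads per Mt2 read in fragmented, recovered 1 to 3, and 18.5, 21.2 and 19.2 in controls 1 to 3. The controls were nearly alike, and all 3 fragmented, recovered mice lay above them, with fragmented, recovered 1 highest. Since both genes are read from the same library, the scaling of the libraries does not enter the ratio. The mean log2 ratio was 5.53 ± 0.68 (SD, n = 3) against 4.29 ± 0.10 (SD, n = 3), a 2.35-fold difference of ratios. Because the pair was picked for its values, this is a description with no test. The log2 difference of the ratio was 1.23, between 0.85 and 1.48 with each mouse left out, and 1.31 with GC and length trends removed, where the groups again did not overlap. These values come from the same mice that led to the choice, so they add no independent support. The share of other gene pairs whose ratio separates the groups was not computed.

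The Mt2 end of that ratio rests on few reads, from 60 to 169 per library. The exact (Clopper-Pearson) 95% interval of the ratio, which covers counting error only, was 27.0 to 40.4 in fragmented, recovered 3 and 16.8 to 27.1 in control 2, so these neighbours touched. The longest exact run shared by an Mt1 and an Mt2 transcript is 20 bases. In the GENCODE M21 annotation, 432 of the 588 exonic bases of Mt2 are also covered by Gm45774, a gene on the opposite strand with a mean of 2.4 normalised read counts. The handling of strand and of reads in overlapping genes is not given in the sources used here, so Mt2 is uncertain, and the part of the overlap in the ratio was not tested.

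**Figure D3:**
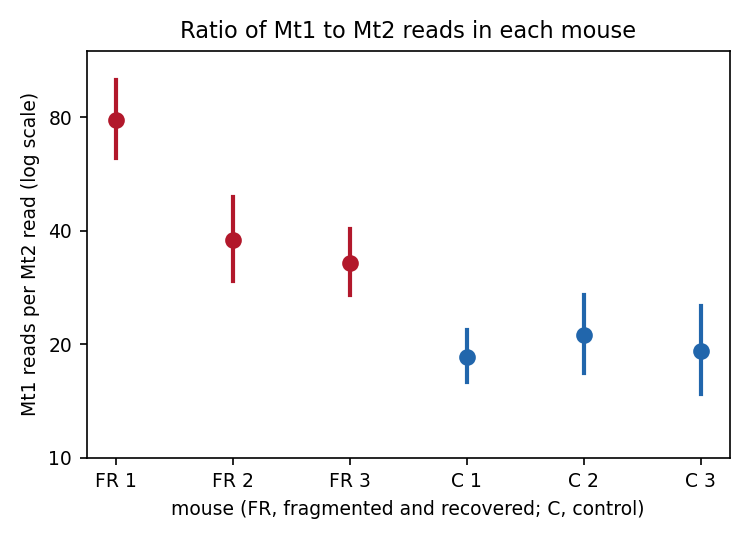
Mt1 reads per Mt2 read in each mouse (vertical log axis) with exact 95% counting intervals. The 3 fragmented, recovered mice lie between 32.9 and 78.7 and the 3 controls between 18.5 and 21.2.

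Per length, the members covered a wide range of levels. Over all 6 mice and per kilobase of exon in GENCODE M21, Mt1 was highest at 2310 ± 1370 normalised read counts (SD, n = 6), followed by Tsc22d3 at 896 ± 323. Sgk1 had 723 ± 169 and Hsd11b1 713 ± 257. Nr3c1 had 484 ± 225, Fkbp5 341 ± 57.8 and Zbtb16 255 ± 117. Mt2 was lowest at 155 ± 78.4. Neighbours in this order all overlapped within 1 SD. The Mt1 level per length was between 8.7 and 37.1 times that of Mt2 in the 6 libraries. The length of Mt2 counted all 588 exonic bases, of which 432 are shared with Gm45774. How reads there were counted is not known. The place of Mt2 in this order and its per-length ratio to Mt1 are therefore uncertain.

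Several members followed the library more than the group. The 3 libraries high in B and plasma cell markers, fragmented, recovered 2 and controls 2 and 3, were the 3 lowest for Tsc22d3, Zbtb16, Hsd11b1 and Mt1, 4 of the 8 members, against 9.05% of all genes tested. No member had them as the 3 highest, against 10.8% of genes. The adipocyte marker median lay below its mean in these 3 libraries, at -0.05, -0.41 and -0.15, and in fragmented, recovered 3, at -0.06. It was 0.59 in fragmented, recovered 1 and 0.30 in control 1. The part of cell content in these levels was not tested beyond the B cell score, which as a covariate left differences of 0.32 for Tsc22d3, 0.28 for Zbtb16, 0.37 for Mt1 and -0.57 for Nr3c1.

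Within these sets of libraries the directions were as follows. In the libraries high in B cell markers, fragmented, recovered 2 exceeded the mean of controls 2 and 3 by 0.53 on the log2 scale for Zbtb16 and by 0.28 for both Tsc22d3 and Mt1. In the others, fragmented, recovered 1 and 3 exceeded control 1 by 0.36 for Tsc22d3, 0.35 for Mt1 and 0.02 for Zbtb16. Hsd11b1 had 0.20 and -0.40, Sgk1 -0.33 and 0.44, Fkbp5 -0.38 and -0.17, and Mt2 -0.61 and -1.09 in the respective sets. Tsc22d3, Zbtb16 and Mt1 were thus above 0 and Fkbp5 and Mt2 below 0 in both, each set having a single mouse on one side and no test.

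**Figure D4:**
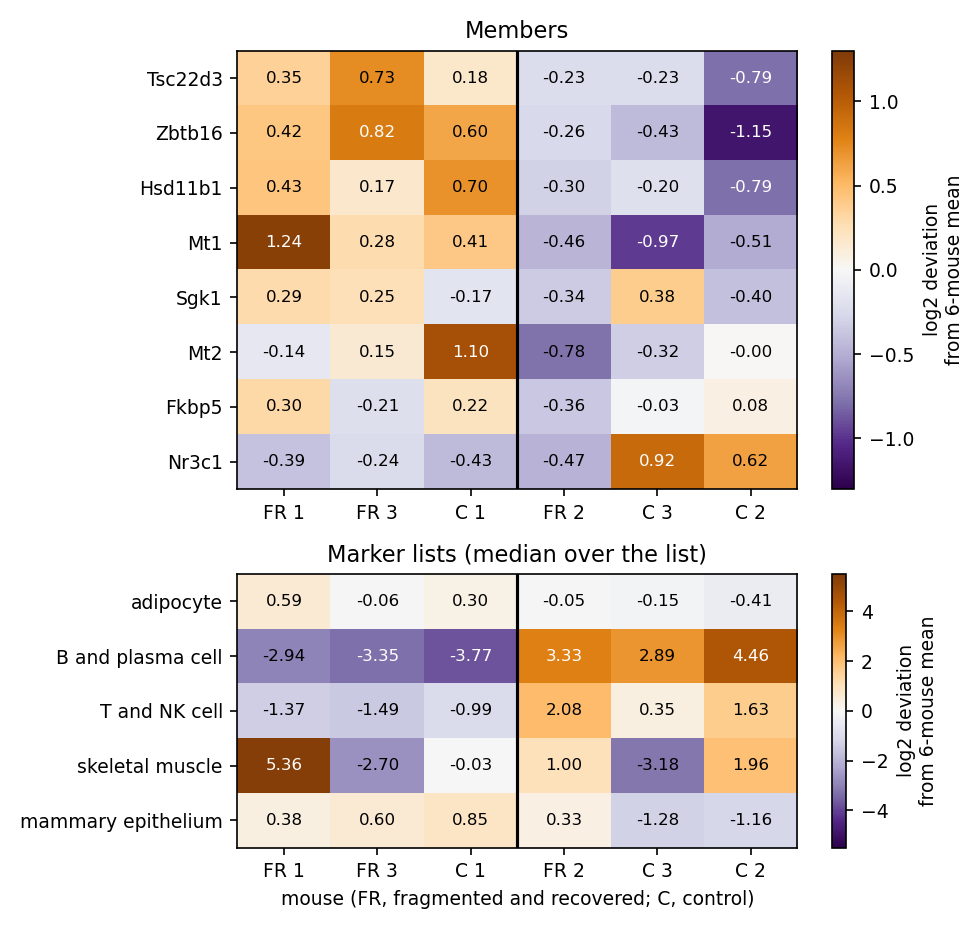
Log2 deviation of each gene (top) and of the median of 5 marker lists (bottom) from the mean of 6 mice, with the libraries low in B cell markers left of the line and those high in them right of it. Tsc22d3, Zbtb16, Hsd11b1 and Mt1 are above 0 left of the line and below 0 right of it, and Nr3c1 is above 0 in controls 2 and 3 only.

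Leaving out control 1 separated the groups for 3 members: Zbtb16 and Mt1 were higher in every fragmented, recovered mouse than in controls 2 and 3, and Nr3c1 was lower. Fkbp5 separated without fragmented, recovered 1 (lower), and Tsc22d3 without fragmented, recovered 2 (higher), settings in which 8.21% of all genes lay below and 8.87% above. Without control 1, 22.5% of all genes lay above and 19.1% below, so these 3 of 8 members were near the background share.

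Profiles over the 6 mice placed Tsc22d3 and Zbtb16 close to each other. The root mean square difference of their centred log2 profiles was 0.24, which ranked Tsc22d3 34 in nearness to Zbtb16 among 12938 genes with a mean of at least 50, and Zbtb16 127 in nearness to Tsc22d3. Hsd11b1 differed from Tsc22d3 by 0.31 and from Zbtb16 by 0.32. Mt1 and Mt2 were apart, at 0.73, and Nr3c1 was 1.19 from Mt1. The genes most like Nr3c1 were Zyg11b, at 0.05, and Ids and Gfpt1, both at 0.06, where the median gene was at 0.654. Those most like Hsd11b1 were Gm454, Cdo1 and Gsta4, between 0.09 and 0.11, and those most like Tsc22d3 were Zfp185, Cdh13 and Depp1, between 0.12 and 0.13. Nearest to Fkbp5 were Btf3l4, Psmc6 and Rras2, and nearest to Sgk1 were Edn1, at 0.04, Pigl and Pcdh12. Zbtb16 had Maff, 1810055G02Rik and Shroom1, Mt1 had Cradd, Kdelr3 and Fkbp7, and Mt2 had 2010003K11Rik, 9630013D21Rik and Aqp11, between 0.15 and 0.22. These are descriptions over 6 libraries, and the profiles also carry the unequal cell content of those libraries.

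A wider list of 40 glucocorticoid targets gave no call either. With limma, 0 of 40 passed, 3 (Cebpb, Tgm2 and Arrdc2) had an unadjusted p under 0.05, 29 were above 0 and 11 below, and the median difference was 0.15. edgeR and DESeq2 also called 0, with 2 and 5 genes at an unadjusted p under 0.05. Over all genes, 1201 of 22290 with limma, 754 of 16141 with edgeR and 1186 of 25776 with DESeq2 were under this threshold. The groups did not overlap for 1 of the 40, Arrdc2, an arrestin-domain gene named after its values were seen, which was higher in the fragmented, recovered mice, against 5.02% of all genes. It had 438.5, 285.2 and 357.5 normalised read counts in fragmented, recovered 1 to 3 against 230.2, 161.6 and 188.3 in controls 1 to 3, a difference of 0.89 (SE 0.30, limma adjusted p = 0.697), and 0.42 with GC and length trends removed.

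Among the other targets, Per1, a clock gene induced directly by the receptor, had 1039, 1556.5 and 2545 normalised read counts in fragmented, recovered 1 to 3 and 1193, 989.1 and 1117 in controls 1 to 3. Fragmented, recovered 1 lay among the controls and the other two above them. The difference was 0.55 (SE 0.32, limma adjusted p = 0.697). Dusp1, a phosphatase that dampens MAP kinase signalling, had 0.71 (SE 0.38), and Lcn2, an acute-phase protein, 0.90 (SE 0.59). Cebpd, a transcription factor of early fat cell formation, had 0.53 (SE 0.38), Angptl4, an inhibitor of lipoprotein lipase, 0.49 (SE 0.32), and Ddit4, an inhibitor of mTORC1, 0.37 (SE 0.31). Klf15 had 0.35, Nfkbia, the inhibitor of NF-kappaB, 0.23, Errfi1 0.15, Pdk4, which holds back pyruvate oxidation, 0.13, and Klf9 0.11. None of these passed, with limma adjusted p-values from 0.697 to 0.927. Per1, Dusp1 and Cebpd are themselves rapidly induced genes, and their levels lie beside the early response sums that separated the groups. The part of the early response in these differences was not tested.

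The 11 targets below 0 reached -0.92, and the 4 lowest are named here after their values were seen. Some targets above 0 lay further from 0: Cebpb at 1.48, Tat at 1.35 (SE 1.36) and Nfil3 at 1.09 (SE 0.66). Tat and Nfil3 are also named after their values were seen, and Tat had a mean of only 6.5 normalised read counts. Trp53inp1, a p53-induced regulator of autophagy, had 1544, 2701 and 2794 normalised read counts in fragmented, recovered 1 to 3 and 2157, 7151 and 5160.0 in controls 1 to 3. Controls 2 and 3 were high, as for Nr3c1, and the groups overlapped. The difference was -0.92 (SE 0.43, limma adjusted p = 0.697). Cd163, a scavenger receptor of macrophages, had -0.67 (SE 0.36), Foxo1, a transcription factor restrained by insulin, -0.37 (SE 0.30), and Rgs2, a regulator of G protein signalling, -0.36 (SE 0.28). The other 7 lay between -0.28 and -0.02.

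Cebpb and Tgm2, named after their values were seen, passed in some settings: Cebpb without control 1 and with quality weights, and Tgm2 with quality weights alone. That was 1 of 40 targets without control 1 and 2 of 39 with quality weights, against 3.79% and 6.34% of all genes. Cebpb, another C/EBP factor of fat cell formation, had a difference of 1.48 (SE 0.54) with all mice. It was 2.12 without control 1 (limma adjusted p = 0.0377) and 2.15 with limma-voom and quality weights (adjusted p = 0.0451). Without control 1 and with GC and length trends also removed it was 0.97 (limma adjusted p = 0.241). Tgm2, a transglutaminase, had 0.92 (SE 0.35), 1.22 without control 1 (limma adjusted p = 0.0693) and 1.19 with limma-voom and quality weights (adjusted p = 0.0491). Without control 1 and with trends also removed, Tgm2 had 0.88 (limma adjusted p = 0.206).

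The receptor's chaperones and transport factors had a median difference of 0.22 over 15 genes, 11 above 0 and 4 below, with 0 calls by limma, edgeR or DESeq2. At an unadjusted p under 0.05 there were 2 (Stip1 and Fkbp4), 0 and 0. The respective counts over all genes were 1201 of 22290, 754 of 16141 and 1186 of 25776. The median was 0.38 without control 1 and 0.01 with GC and length trends removed. Fkbp4, the Hsp90 co-chaperone that favours transport of the receptor to the nucleus, had 1861, 1751 and 1479 normalised read counts in fragmented, recovered 1 to 3 and 1665, 834.2 and 757.5 in controls 1 to 3. Like Nr3c1 it set controls 2 and 3 apart from the other 4 mice, but in the opposite direction. Mammary epithelium and keratinocyte markers were low in the same libraries, and their part in the levels of Fkbp4 and Nr3c1 was not tested. The difference of Fkbp4 was 0.73 (SE 0.32, limma adjusted p = 0.697), 1.09 without control 1 (adjusted p = 0.0387) and 0.67 with trends also removed (limma adjusted p = 0.135). Stip1, which links Hsp70 to Hsp90, had 0.73, 1.09 (adjusted p = 0.0399) and 0.80 (limma adjusted p = 0.102) in the same settings. With limma-voom and quality weights Fkbp4 had 1.03 and Stip1 1.05 (adjusted p = 0.0451 for each). These 2 of 15 genes were called without control 1 and with quality weights, against 3.79% and 6.34% of all genes. The Hsp90 genes Hsp90aa1 and Hsp90ab1 had -0.44 (SE 0.28) and 0.14 (SE 0.28). Nr3c2, the mineralocorticoid receptor, which also binds corticosterone, had 0.08 (SE 0.52).

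Coregulators of nuclear receptors had a median of -0.21 over 18 genes, 6 above 0 and 12 below, with 0 calls and 0 at an unadjusted p under 0.05 by limma, edgeR and DESeq2. The median was -0.04 with GC and length trends removed, -0.01 without fragmented, recovered 1, and turned to 0.11 without the pair of libraries highest in muscle markers. The coactivators Ncoa1 and Ncoa2 had -0.33 (SE 0.26) and -0.31 (SE 0.31), and the corepressor Ncor1 had -0.07 (SE 0.25). Carm1 was the 1 gene of 18 whose groups did not overlap, at 0.18 (SE 0.23), higher in the fragmented, recovered mice as were 5.02% of all genes. Med14, a subunit of Mediator named after its values were seen, was called at -1.06 without control 1 (limma adjusted p = 0.0446) and had -0.38 with trends also removed (limma adjusted p = 0.342). It was the 1 gene of 18 called without control 1, against 3.79% of all genes.

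Genes of steroid metabolism and transport had a median of 0.09 over the 9 that passed the filter, of 14 listed, 0.35 with GC and length trends removed and -0.12 without fragmented, recovered 1, with 0 calls and 0 at an unadjusted p under 0.05 by limma, edgeR and DESeq2. Of these 9, the groups did not overlap for 1, Hsd11b2, which was higher in the fragmented, recovered mice, against 5.02% of all genes. Zinc and metal handling genes, a list that also holds genes of iron and of glutathione synthesis, had a median of -0.17 over 19 of 20 listed genes. There were 0 calls by each tool and 1, 2 and 1 genes at an unadjusted p under 0.05 by limma, edgeR and DESeq2. The respective counts over all genes were again 1201 of 22290, 754 of 16141 and 1186 of 25776. The median was -0.36 without control 1 and turned to 0.02 with GC and length trends removed. The gene with an unadjusted p under 0.05 in limma was Slc40a1, the iron exporter, at -0.76 (SE 0.33). Mtf1, which encodes the zinc sensor MTF-1, had -0.17 (SE 0.31). Slc30a1, a zinc exporter and a target of the sensor, had 741.3, 636.4 and 715.1 normalised read counts in fragmented, recovered 1 to 3, all below the 798.3, 1105.5 and 1172 of controls 1 to 3. Its difference was -0.54 (SE 0.24, limma adjusted p = 0.697). Of the list, 2 genes lay below all controls in this way, Slc30a1 and Gclm, a subunit of the enzyme for glutathione synthesis, at -0.45 (SE 0.22), against 3.58% of all genes. Slc39a14, a zinc importer, had 0.24 (SE 0.36). The other metallothioneins were barely detected: Mt3 reached at most 15.6 normalised read counts in any mouse, and Mt4 was above 0 in fragmented, recovered 2 alone, at 16.7.

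**Figure D5:**
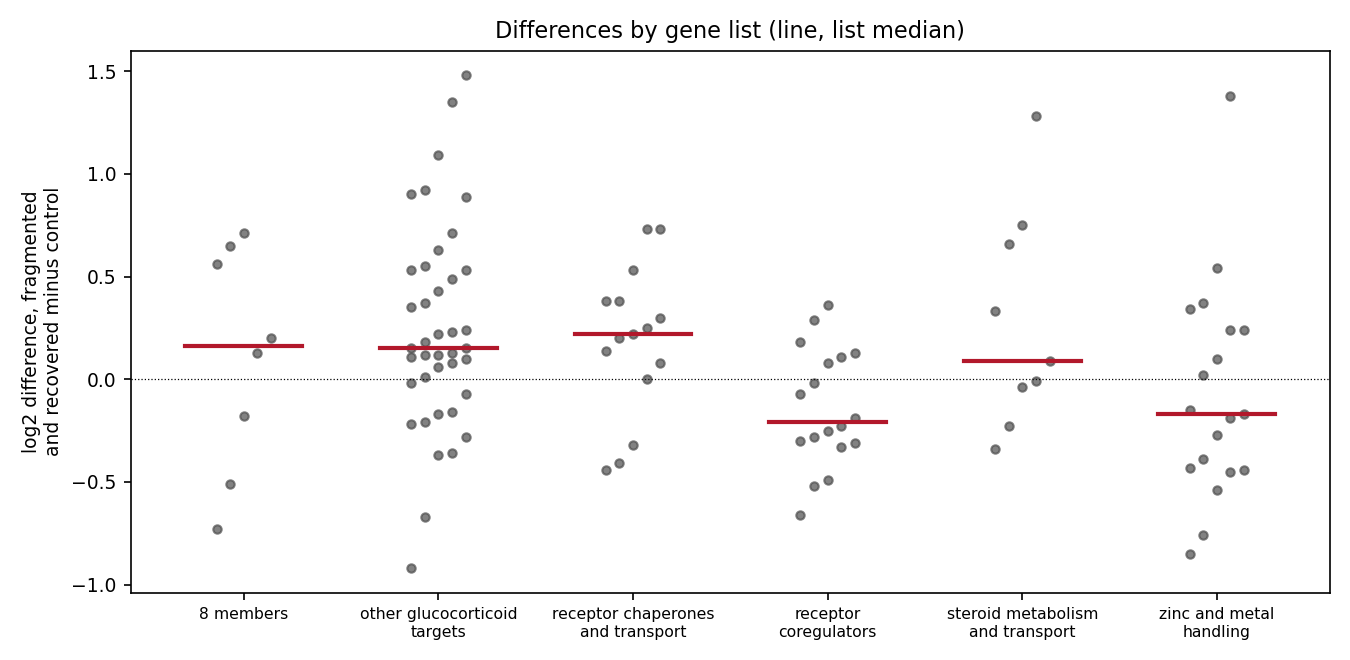
Log2 difference of each gene between the groups (vertical axis), as 1 point a gene, for the 8 members and 5 other lists of the pathway, with a line at the list median. The medians lie between -0.21 and 0.22.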

How the data were processed

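Per the submitters' processing notes, CASAVA, HISAT2 2.0.5, featureCounts 1.5.0-p3 and the mouse build mm8 were used. The table deposited by the authors holds a signal, scaled read counts. Taking the lowest non-zero value of a library as 1 read turned 100% of the values into whole reads, within 0.02, so each library had been divided by 1 factor. limma 3.58.1 with an intensity trend (R 4.3.3) was run on log2(value + 1), which understates changes of low genes, on 22290 genes (mean value 1 or more). Adjustment was by Benjamini-Hochberg, with a threshold of 0.05. edgeR 4.0.16, DESeq2 1.42.0 and limma-voom were run on recovered reads. A table of Ensembl identifiers and symbols left 33 identifiers unmatched. Lengths and GC content came from GENCODE M21 and promoter windows from RefSeq. The members, lists and tests were chosen with earlier results of these data known. Genes named were the members, 23 pathway genes set by name, the 3 nearest profiles of each member, the most abundant early response genes and genes picked afterwards. The last are stated as such beside them, apart from Stip1, Carm1, Slc40a1, Gclm, Mt3 and Mt4, which were also picked afterwards. Gm45774 was named for its overlap with Mt2. The limma script was tested on simulated data.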

Additional observations from a re-analysis of the deposited data

How the results depend on the processing

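With all 6 mice, limma called 0 genes under every normalisation, pseudocount, filter and covariate run and with the replicate block, as did edgeR and DESeq2. limma-voom with quality weights called 1023 genes and 1 member. Leaving out 1 mouse gave 0 to 844 genes and 0 to 1 member, the highest without control 1. Without control 1 and with GC and length trends removed, a setting chosen after seeing the data, there were 88 genes and 0 members. The median over the members was -0.09 to 0.37 with each mouse left out and -0.02 with the B cell score as a covariate. Leaving out the 2 libraries with most muscle marker signal gave -0.23. In that setting Mt1 had 0.19, Zbtb16 0.20 and Tsc22d3 0.27, against 0.71, 0.65 and 0.56 with all 6 mice. Nr3c1 had -0.60, Fkbp5 -0.37 and Mt2 -0.70, against -0.73, -0.18 and -0.51. The number of members whose groups did not overlap was 0 to 3 with each mouse left out. Of all genes, 6.71% to 22.5% lay above and 6.01% to 19.1% below in those settings. The number was 1 without the 2 libraries high in muscle markers and 1, Mt2, with trends removed. The share of all genes was not computed for these last settings, so their counts cannot be set against a background. Hsd11b1 turned to -0.31 without the 2 libraries, to -0.09 with the B cell score, and was -0.15 (without control 2) to 0.60 with each mouse left out. Sgk1 turned to -0.15 without the 2 libraries, -0.02 with limma-voom, and was -0.04 (without control 2) to 0.35 with each mouse left out. The causes were not tested. Nr3c1, Fkbp5, Tsc22d3, Zbtb16, Mt1 and Mt2 kept their direction in all 20 alternatives. Scaling to library totals moved the median of all genes from 0.02 to 0.135 and that of the members to 0.28. Whether the replicate numbers pair the mice could not be settled. Deviations of same-numbered mice had correlations of 0.177, 0.393 and 0.0425 across genes, and those of other pairs lay between -0.356 and 0.208. The highest was that of the mice numbered 2, but fragmented, recovered 3 correlated best with control 1. At an unadjusted p under 0.05, limma had 2676 genes with the replicate block and 1201 without it. Its lowest adjusted p was 0.0705 with the block and 0.697 without. With the replicate block, Nr3c1 had -0.73 (limma adjusted p = 0.381), and with trends also removed -0.23. With 3 mice a group, differences inside the printed intervals were not excluded by these data.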
